A study of Mus musculus with 20 samples.

Results

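The genes described here are 9 genes of the thermogenic programme of fat, chosen by gene symbol from the 27179 genes of a bulk RNA-seq table: Ucp1, Dio2, Ppargc1a, Prdm16, Cidea, Cox8b, Cox7a1, Elovl3 and Gk. All 9 were in the table. Their levels were read in adipocyte progenitor cells, defined by the surface receptor PDGFRb and taken from the inguinal white fat depot of male C57BL/6 mice by flow cytometry. The study compared cells carrying the peptidase DPP4 (DPP4+) with cells lacking it (DPP4-), each from mice kept at 22 °C (room temperature) or at 6 °C for 24 h. There were 5 libraries in each of the 4 groups and 20 in all. The groups shared strain, sex, depot and the PDGFRb+ gate, and carried no transgene or drug in the labels. The labels do not say whether a library came from 1 mouse or from a pool, so p-values measure the spread between these libraries, which may be partly technical.

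Brown and beige fat cells make heat when cold raises sympathetic tone: noradrenaline acts through cyclic AMP on the nucleus and on lipid breakdown, and UCP1 then lets protons back across the inner mitochondrial membrane without making ATP. DIO2 converts the prohormone T4 into active thyroid hormone inside the cell, PRDM16 and PGC-1alpha (the product of Ppargc1a) direct the gene programme, and Cidea, Cox8b, Cox7a1, Elovl3 and Gk are widely used marks of thermogenic fat cells. Progenitor cells stand upstream of those fat cells and are not themselves thought of as heat-producing.

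Values are gene read counts divided by 1 factor per library, called normalized reads below. Libraries held 8.49 to 18.8 M (1e6) reads assigned to genes, and 1 read was worth 0.622 to 1.88 normalized reads. Dpp4 itself averaged 8546 ± 1158 normalized reads in DPP4+ cells and 67.9 ± 21.6 in DPP4- cells at 22 °C, with 10035 ± 2091 and 61.3 ± 42.4 at 6 °C (SD, n = 5), so the libraries followed the sort. The summed normalized reads were 10.2 to 12.1 M per library in DPP4+ cells and 15.4 to 17.3 M in DPP4- cells. Setting all totals equal moved the median log2 difference of all genes between the populations from 0.03 to 0.64 at 22 °C and from 0.03 to 0.50 at 6 °C, while the median cold effect moved by less than 0.1 in either population. Differences between the populations of that size therefore depended on the scaling, and those named below are given with both values where the call changed. In bulk RNA a change in the share of cells expressing a gene and a change in RNA per cell cannot be told apart.

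The test across genes took the 13057 whose mean over the libraries was 10 normalized reads or more, 7 of the 9 among them (limma, two-sided, Benjamini-Hochberg adjusted over all tested genes, threshold 0.05). Cidea and Elovl3 had 25 and 32 reads in all 20 libraries together and were compared with exact permutation tests. Ucp1 had 428 reads, Ppargc1a 268 and Cox7a1 242. The other 4 tested genes had between 1118 and 33121.

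The promoters of the 4 genes that changed with cold in DPP4+ cells, and of Cox8b, which separated the populations, are shown because cold acts on thermogenic genes through cyclic AMP, whose nuclear factors bind the sequence TGACGTCA (the cyclic AMP response element, CRE) or its core TGACG. The sequences are 300-base windows, 250 bases before and 50 from a transcript start as the RefSeq promoter table gives it, written 5' to 3' on the gene's own strand (RefSeq, GRCm38.p6). The windows are chr12:90738989-90739288 (minus strand, Dio2), chr8:83290098-83290397 (plus, Ucp1), chrX:85776770-85777069 (minus, Gk), chr5:51567676-51567975 (minus, Ppargc1a) and chr7:140900397-140900696 (minus, Cox8b). For Ppargc1a and Prdm16 the table's start lies inside the RefSeq span of the gene, within 1 base of the GENCODE vM21 start (51567726 and 154636873), and not at its outer end. Capitals mark the CRE core TGACG or its reverse complement CGTCA, and the nuclear receptor core AGGTCA or TGACCT.
Dio2: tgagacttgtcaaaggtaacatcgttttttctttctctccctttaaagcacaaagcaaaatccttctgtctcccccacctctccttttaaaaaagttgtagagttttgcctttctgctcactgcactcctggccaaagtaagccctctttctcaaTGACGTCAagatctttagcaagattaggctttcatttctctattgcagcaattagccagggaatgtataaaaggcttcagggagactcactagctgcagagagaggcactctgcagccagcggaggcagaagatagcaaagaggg
Ucp1: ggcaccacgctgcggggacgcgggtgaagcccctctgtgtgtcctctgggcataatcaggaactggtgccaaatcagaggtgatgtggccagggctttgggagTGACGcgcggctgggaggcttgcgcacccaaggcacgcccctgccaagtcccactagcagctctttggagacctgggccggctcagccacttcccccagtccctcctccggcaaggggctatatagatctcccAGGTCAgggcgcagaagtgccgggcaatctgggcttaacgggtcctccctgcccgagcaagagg
Gk: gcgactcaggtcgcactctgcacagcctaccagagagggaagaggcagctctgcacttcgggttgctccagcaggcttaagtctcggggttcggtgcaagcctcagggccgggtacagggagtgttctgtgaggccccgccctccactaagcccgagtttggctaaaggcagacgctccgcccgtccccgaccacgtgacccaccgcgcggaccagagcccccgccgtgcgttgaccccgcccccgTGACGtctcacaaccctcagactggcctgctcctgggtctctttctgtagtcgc
Ppargc1a: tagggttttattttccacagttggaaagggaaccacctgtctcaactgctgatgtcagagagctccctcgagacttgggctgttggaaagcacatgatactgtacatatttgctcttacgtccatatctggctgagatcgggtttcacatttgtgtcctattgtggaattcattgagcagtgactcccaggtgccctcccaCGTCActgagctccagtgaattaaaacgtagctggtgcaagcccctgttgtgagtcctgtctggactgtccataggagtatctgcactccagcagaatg
Cox8b: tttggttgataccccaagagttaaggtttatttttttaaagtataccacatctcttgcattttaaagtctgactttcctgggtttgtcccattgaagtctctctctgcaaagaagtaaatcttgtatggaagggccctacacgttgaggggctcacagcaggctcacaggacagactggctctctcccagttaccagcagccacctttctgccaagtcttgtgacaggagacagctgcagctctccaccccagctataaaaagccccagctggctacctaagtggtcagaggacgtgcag

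The Dio2 window held the complete palindrome TGACGTCA, beginning 95 bases before the start, with a TATAAA on the gene's strand beginning 30 bases before it. In the palindrome the core reads on both strands. The Ucp1 window held 1 core TGACG, 147 bases before the start, and 1 AGGTCA, 14 bases before it. The Ppargc1a window held 1 CGTCA, 49 bases before the start, and the Gk window 1 TGACG, 4 bases before it. Neither the core nor AGGTCA was in the windows of Cox8b, Prdm16 or Cox7a1. The Cox8b window held 1 TATAAA on the gene's strand, beginning 4 bases after the start. Among 32851 promoter windows of the same length, 20.8% held the core on either strand, 1.79% the complete palindrome, 16.3% AGGTCA or its reverse complement and 8.32% TATAAA on the gene's strand. A match is a description of letters and not a shown binding site. The RefSeq start of Dio2 (position 90739038 on chromosome 12) lies upstream of its start in the GENCODE vM21 annotation (90738438).

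**Figure D1:**
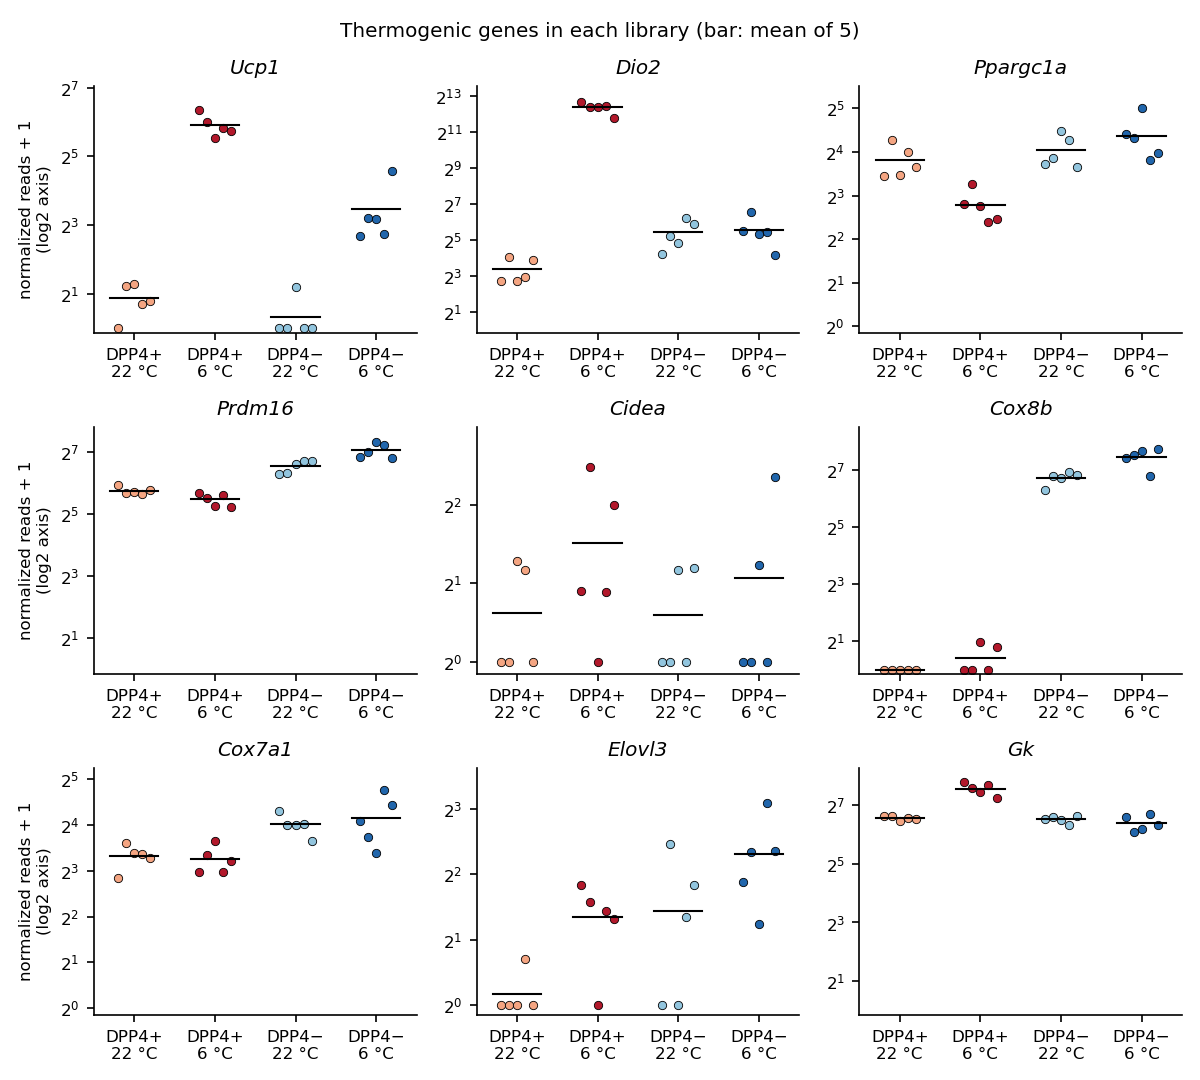
Normalized reads plus 1 (log2 axis) of each thermogenic gene in each library, with 1 point per library, the 4 groups along the x axis and a bar at the mean of 5. Dio2 stands at 3476 to 6607 normalized reads in DPP4+ cells at 6 °C and at 5.60 to 92.7 in all other libraries, and Cox8b at 78.3 to 215 in DPP4- cells and below 1 in DPP4+ cells.

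Ucp1 (Entrez 22227; chr8:83290348-83298456, plus strand), the uncoupling protein itself, went from near absence to a low but clear level in cold DPP4+ cells, and to a lower level in cold DPP4- cells. In DPP4+ cells at 22 °C it stood at 0, 1.31, 1.45, 0.626 and 0.727 normalized reads, from 6 reads in all. In DPP4+ cells at 6 °C it stood at 81.1, 63.8, 45.6, 56.3 and 52.4, from 374 reads. The groups did not overlap: the means were 0.822 ± 0.581 and 59.8 ± 13.6 (SD, n = 5), a 72.8-fold rise. The log2 difference was 5.10 (95% interval 4.32 to 5.88, adjusted p = 9.32e-11, limma), the 13th highest of the 13057 tested genes. Ucp1 met the minimum mean for testing only through these cold libraries, so the rank holds within the tested set alone.

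In DPP4- cells at 22 °C a single read of Ucp1 was counted over 5 libraries, in replicate 3 (1.26 normalized reads). At 6 °C the 5 libraries gave 5.36, 8.18, 8.10, 5.65 and 23.0, from 47 reads, of which 28 were in replicate 5. All cold libraries lay above all libraries at 22 °C. The ratio of the means was 40.0, with a 95% interval from counting error alone of 7.35 to 1734. The fitted log2 difference of 3.04 (adjusted p = 0.000141, limma) was the highest of the tested genes for cold in DPP4- cells. Ucp1 was tested only because of its level in cold DPP4+ cells, and genes that were low in all groups were not ranked. Without replicate 5 the cold mean was 6.82 ± 1.53 (n = 4) in place of 10.1 ± 7.37 (n = 5).

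At 6 °C the DPP4+ level of Ucp1 was 5.94 times the DPP4- level (log2 difference 2.62, adjusted p = 1.20e-06, limma), or 8.77-fold without replicate 5 of the DPP4- cells, and the groups were apart. At 22 °C the populations did not differ detectably on 6 and 1 reads (log2 difference 0.56, adjusted p = 0.182, limma). The rise on the log2(value + 1) scale was larger in DPP4+ cells by 2.06 (95% interval 0.96 to 3.17, adjusted p = 0.00447, limma). This difference did not pass in the count models, which gave 1.16 (edgeR with TMM factors, adjusted p = 0.766) and 1.36 (DESeq2, adjusted p = 0.391). The starting level in DPP4- cells rests on 1 read.

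Markers of mature fat cells, the cells in which Ucp1 is best known, moved in opposite directions in the populations. Of 13 tested markers of mature adipocytes (15 listed), none rose and 6 fell with cold in DPP4+ cells, and 5 rose and none fell in DPP4- cells (10 and none with totals set equal). Of all tested genes 23.5% rose and 22.6% fell in DPP4+ cells. In DPP4- cells 1.98% rose and 3.23% fell (916 and 226 of 13072 genes with totals set equal). The summed level of the 15 markers was 3530 to 4589 normalized reads in DPP4+ cells at 22 °C and 1788 to 2838 at 6 °C, against 3515 to 7370 and 8060 to 12984 in DPP4- cells. Fabp4 made up most of the DPP4- sums (2992 to 6476 and 6941 to 11710). Of the 13, 9 were higher and 2 lower in DPP4+ than in DPP4- cells at 22 °C, beside 38.7% and 36.2% of all tested genes. At 6 °C 3 were higher and 6 lower, beside 38.5% and 35.7%. With totals set equal these counts were 10 and 2 at 22 °C and 6 and 6 at 6 °C. None of the 15 was without reads in any group. Within the cold DPP4- libraries replicate 5, highest in Ucp1, had a summed level of 9250, inside the range of the others. Fabp4 made up most of that sum (7001) and was not highest in replicate 5. Adipoq (52.7), Plin1 (209) and Car3 (1053) were each highest in replicate 5 among the cold DPP4- libraries. The rise of Ucp1 in DPP4+ cells thus came with a lower adipocyte marker sum and that in DPP4- cells with a higher one; the part of these markers in the DPP4- result was not tested.

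**Figure D2:**
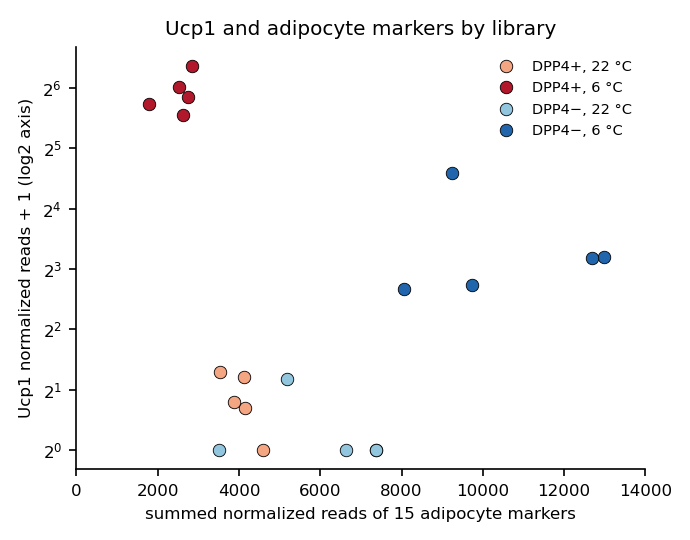
Ucp1 (normalized reads plus 1, log2 axis) against the summed normalized reads of 15 mature adipocyte markers, with 1 point per library coloured by group. The cold DPP4+ libraries have the highest Ucp1 (45.6 to 81.1) at the lowest marker sums (1788 to 2838), and the cold DPP4- libraries have Ucp1 of 5.36 to 23.0 at the highest sums. Fabp4 makes up most of each DPP4- sum. Single markers go either way in the cold libraries. Adipoq is 159 to 279 in DPP4+ and 18.8 to 52.7 in DPP4- cells, and Car3 is 146 to 273 and 383 to 1053.

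Ucp2, a related carrier that is not a thermogenic uncoupler of the same kind, also rose in cold DPP4+ cells, from 22.5 ± 4.92 to 227 ± 49.4 normalized reads (10.1-fold, adjusted p = 1.35e-09, limma). In DPP4- cells it stood at 85.5 ± 19.3 and 97.6 ± 44.5 (adjusted p = 0.867, limma). Levels of different genes were compared only per kilobase of exon. On that scale Ucp1 reached 36.6 ± 8.30 normalized reads per kb in cold DPP4+ cells beside 32.4 ± 7.06 for Ucp2. Ucp1 then made up 52.9% of the summed level of Ucp1, Ucp2 and Ucp3 per kb, or 39.1% if the length of the longest transcript was used.

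Dio2 (Entrez 13371; chr12:90724552-90739038, minus strand), the activating deiodinase, showed the largest response of the 9 genes, and only in 1 of the populations was a change detected. In DPP4+ cells at 22 °C it stood at 5.60, 15.7, 5.79, 6.89 and 13.8 normalized reads, from 71 reads. At 6 °C it stood at 6607, 5360, 5430, 5687 and 3476, from 32723 reads. The lowest cold library lay far above the highest at 22 °C: the means were 9.56 ± 4.82 and 5312 ± 1140 (SD, n = 5), a 556-fold rise (log2 difference 9.06, 95% interval 8.19 to 9.93, adjusted p = 2.93e-12, limma), rank 3 from the top of the tested genes.

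In DPP4- cells Dio2 stood at 17.6, 36.0, 27.7, 73.7 and 59.2 at 22 °C (153 reads) and at 44.2, 92.7, 39.1, 43.3 and 17.3 at 6 °C (174 reads). These groups overlapped almost completely, with a log2 difference of 0.13 and a 95% interval of -0.74 to 0.99 (adjusted p = 0.895, limma). The difference between the cold effects was 8.93 on the log2 scale (95% interval 7.71 to 10.16, adjusted p = 1.65e-09, limma), the second highest of the tested genes. The order of the populations turned round: at 22 °C Dio2 was 4.48-fold lower in DPP4+ cells (limma log2 difference -2.0, adjusted p = 0.00026) and at 6 °C 112-fold higher (log2 difference 6.94, adjusted p = 2.15e-11, limma), with the groups apart both times.

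The level in cold DPP4- cells was 0.891% of that in cold DPP4+ cells for Dio2 and 16.8% for Ucp1, beside 0.611% for Dpp4 itself and 0.0436% to 1.71% for the 5 genes nearest to Dio2 in profile. Whether a few DPP4+ cells in the DPP4- sort gave part of the Ucp1 reads was not tested. An opposite-strand RNA, Gm26512, overlaps an exon of Dio2 and was not analysed here. The strand setting of the counting is not stated.

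Dio3, the deiodinase that inactivates thyroid hormone, rose as well in cold DPP4+ cells, from 72.8 ± 12.4 to 136 ± 36.7 normalized reads (1.87-fold, adjusted p = 0.00279, limma). It was at 36.9 ± 10.9 and 60.1 ± 16.8 in DPP4- cells (adjusted p = 0.0691, limma), and the cold effects on Dio3 did not differ detectably (difference 0.17, adjusted p = 0.716, limma). Per kb of exon, Dio3 stood above Dio2 in DPP4+ cells at 22 °C (35.9 against 1.64 normalized reads per kb), and Dio2 far above Dio3 at 6 °C (914 ± 196 against 67.1 ± 18.1). Dio2 thereby went from 4.32% to 93.2% of the summed level of the 3 deiodinase genes per kb in DPP4+ cells, and was 28.9% and 20.7% of it in DPP4- cells.

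Of 16 tested genes of thyroid hormone supply and action (transporters, receptors and their partners), 3 rose and 6 fell with cold in DPP4+ cells (median log2 difference -0.13, beside 0.01 over all genes). Of all tested genes 23.5% rose and 22.6% fell in that comparison, the background for this and the other gene lists. In DPP4- cells the background was 1.98% and 3.23%, or 916 and 226 of 13072 genes with totals set equal. Slc3a2, the heavy chain of an amino acid and iodothyronine transporter, rose 1.73-fold (2026 ± 162 to 3496 ± 244 normalized reads, adjusted p = 1.63e-09, limma). Thrb, the beta receptor of the hormone, fell 1.98-fold (248 ± 14.3 to 125 ± 10.5, adjusted p = 1.41e-08, limma). Rxra, the receptor's partner, fell 1.23-fold (adjusted p = 0.000188, limma). In DPP4- cells 3 of the 16 rose and none fell (6 and none with totals set equal), among them Slc3a2, which rose 1.21-fold (adjusted p = 0.0185, limma).

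DIO2 is a selenoprotein of short life, degraded after ubiquitination and rescued by deubiquitination. Of 10 tested genes of its turnover and of selenoprotein synthesis, 4 rose and none fell with cold in DPP4+ cells, by 1.10-fold to 1.41-fold: Secisbp2, which binds the selenocysteine insertion element, Usp33, a deubiquitinase of DIO2, and the ligase genes Wsb1 and Marchf6. Of all tested genes 23.5% rose. Under quantile normalization 1 of the 10 rose, and Usp33, Wsb1 and Marchf6 did not pass (adjusted p = 0.0552, 0.0639 and 0.31, limma). In DPP4- cells none of the 10 passed the test.

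Ppargc1a (Entrez 19017; chr5:51454249-52115853, minus strand), the coactivator of mitochondrial genes that cold raises in brown fat, fell in cold DPP4+ cells. It stood at 9.95, 18.3, 10.1, 15 and 11.6 normalized reads in DPP4+ cells at 22 °C (98 reads) and at 6.04, 8.55, 5.83, 4.26 and 4.49 at 6 °C (37 reads). All cold libraries lay below all libraries at 22 °C, with means of 13.0 ± 3.61 and 5.83 ± 1.71 (SD, n = 5), a 2.23-fold fall (log2 difference -1.03, 95% interval -1.58 to -0.49, adjusted p = 0.00242, limma). In DPP4- cells it stood at 12.2, 13.5, 21.4, 18.4 and 11.6 at 22 °C (56 reads) and at 20.1, 19.1, 31.0, 13.2 and 14.8 at 6 °C (77 reads). These groups overlapped (log2 difference 0.31, 95% interval -0.24 to 0.85, adjusted p = 0.540, limma).

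The cold effects on Ppargc1a differed by -1.34 on the log2 scale (95% interval -2.11 to -0.57, adjusted p = 0.00734, limma). The populations were not told apart at 22 °C (log2 difference -0.23, adjusted p = 0.444, limma; 0.34 with totals set equal), and at 6 °C the DPP4+ cells were 3.37-fold lower (log2 difference -1.57, adjusted p = 1.03e-05, limma). Its paralog Ppargc1b also fell in cold DPP4+ cells, 2.61-fold (62 and 19 reads in the group at 22 °C and at 6 °C, adjusted p = 0.003, limma), and rose 2.51-fold in cold DPP4- cells (53 and 153 reads, adjusted p = 0.0152, limma). Per kb of exon both were at 0.794 to 9.17 normalized reads in all groups. Pprc1, the remaining family member, stood at 237 to 501.

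Prdm16 (Entrez 70673; chr4:154316122-154637360, minus strand), the transcriptional regulator that favours brown and beige over other fates, was highest in cold DPP4- cells. It stood at 60.3, 50.4, 52.1, 49.5 and 54.5 normalized reads in DPP4+ cells at 22 °C (400 reads) and at 50.9, 45.4, 37.9, 48.6 and 36.6 at 6 °C (273 reads). In DPP4- cells it stood at 78.3, 79.6, 98.2, 104 and 105 at 22 °C (339 reads) and at 114, 127, 161, 151 and 111 at 6 °C (512 reads). The DPP4+ groups overlapped in 1 library, and the DPP4- groups did not overlap. Cold raised Prdm16 1.42-fold in DPP4- cells (limma log2 difference 0.50, adjusted p = 0.0265), a call that was lost on leaving out replicate 1 or 2 at 22 °C or replicate 3 or 4 at 6 °C (adjusted p = 0.0655, 0.0642, 0.0779 and 0.0588, limma).

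In DPP4+ cells the log2 difference of Prdm16 was -0.29 (95% interval -0.56 to -0.01, adjusted p = 0.0788, limma; -0.34 and 0.0496 without replicate 1 at 6 °C), and the cold effects differed by -0.79 (adjusted p = 0.00205, limma). Prdm16 was 1.75-fold lower in DPP4+ cells at 22 °C (log2 difference -0.78, adjusted p = 9.43e-06, limma) and 3.02-fold lower at 6 °C (log2 difference -1.57, adjusted p = 1.29e-10, limma). With totals set equal the difference at 22 °C was -0.18 (adjusted p = 0.241, limma) and that at 6 °C still passed. B230104I21Rik, which overlaps an exon of Prdm16 on the opposite strand, had 0 to 2 reads in a group.

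Of 35 tested partners of PRDM16 and PGC-1alpha, 8 rose and 8 fell with cold in DPP4+ cells (median log2 difference -0.04), beside 23.5% and 22.6% of all tested genes, and 5 and 10 with totals set equal. Ctbp2, a corepressor bound by PRDM16, rose 1.92-fold (288 ± 17.8 to 552 ± 60.1 normalized reads, adjusted p = 2.59e-10, limma), and Cebpb, its partner in brown fat cells, rose 1.4-fold (adjusted p = 0.000128, limma). Rbl1 (p107), a pocket protein, fell 1.54-fold and Ncoa2, a steroid receptor coactivator, fell 1.29-fold (adjusted p = 1.95e-05 and 4.64e-05, limma). In DPP4- cells 3 of the 35 rose and 1 fell, beside 1.98% and 3.23% of all tested genes. Rbl1 was up 1.41-fold and Foxc2, a forkhead factor of fat, down 2.06-fold there (adjusted p = 0.00453 and 0.033, limma).

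Cox8b (Entrez 12869; chr7:140898942-140900446, minus strand), the muscle and brown fat form of cytochrome c oxidase subunit 8, separated the populations whatever the temperature. No read was counted in the 5 libraries of DPP4+ cells at 22 °C, and 2 reads were counted at 6 °C, in replicates 3 and 5 (0.971 and 0.748 normalized reads). In DPP4- cells it stood at 78.3, 111, 106, 121 and 113 at 22 °C (383 reads) and at 172, 184, 204, 109 and 215 at 6 °C (733 reads). DPP4+ cells were at least 263-fold lower at 22 °C, taking 3 reads over the group as the limit that a count of 0 allows (log2 difference -6.73, adjusted p = 4.90e-17, limma), the second lowest of the tested genes. Cox8b met the minimum mean for testing only through DPP4- cells, so the rank holds within the tested set alone. At 6 °C the ratio was 514, with a 95% counting interval of 159 to 4755 (log2 difference -7.08, adjusted p = 1.28e-17, limma).

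Within DPP4- cells the mean of Cox8b was 106 ± 16.4 at 22 °C and 177 ± 41.3 at 6 °C (SD, n = 5). Replicate 4 of the cold group lay inside the range at 22 °C and the other 4 lay above it. The 1.67-fold difference missed the threshold (log2 difference 0.71, 95% interval 0.20 to 1.22, adjusted p = 0.0940, limma). It passed in the count models (adjusted p = 0.0106 with edgeR and TMM factors, 0.0015 with DESeq2) and on leaving out that replicate (adjusted p = 0.0444, limma).

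The general isoform Cox8a was at a like level in all groups, between 1082 ± 145 and 1331 ± 36.5 normalized reads per kb of exon. Cox8b stood at 294 ± 45.6 and 491 ± 115 per kb in DPP4- cells at 22 °C and 6 °C. It made up 21.4% and 28.7% of the summed subunit 8 level per kb in those groups, and 0 and 0.0733% in DPP4+ cells. Cox8b is also a muscle gene: the 13 skeletal muscle markers had summed levels of 66.2 to 92 and 67.5 to 134 normalized reads in DPP4- cells at 22 °C and 6 °C, against 132 to 151 and 87.4 to 111 in DPP4+ cells. Of these markers Pvalb had no read in either DPP4+ group, and Ckm and Myh1 had none in cold DPP4+ cells. The part of muscle RNA in the Cox8b level was not tested.

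Cox7a1 (Entrez 12865; chr7:30184171-30186030, plus strand), the muscle and brown fat form of subunit 7A, was low in all groups, at 53 to 67 reads each. It stood at 6.22, 11.1, 9.41, 9.40 and 8.72 normalized reads in DPP4+ cells at 22 °C and at 6.90, 9.20, 11.7, 6.82 and 8.23 at 6 °C. In DPP4- cells it stood at 18.9, 15, 15.1, 15.4 and 11.6 at 22 °C and at 16.1, 12.3, 9.45, 26.4 and 20.6 at 6 °C. Cold changed it detectably in neither population (log2 differences -0.06 and 0.08, adjusted p = 0.857 and 0.891, limma). DPP4+ cells were 1.69-fold lower at 22 °C (log2 difference -0.70, adjusted p = 0.0164, limma), where the groups were apart, and 1.98-fold lower at 6 °C (log2 difference -0.85, adjusted p = 0.00473, limma), where they overlapped. With totals set equal neither difference passed (-0.14 and -0.42, adjusted p = 0.612 and 0.136, limma), and the first did not pass without replicate 1 of the DPP4+ cells at 22 °C (adjusted p = 0.0534, limma).

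Of 13 other tested genes listed for cytochrome c oxidase, not all of them general subunits, 9 rose and 1 fell with cold in DPP4+ cells. Their median log2 difference was 0.22, and of all tested genes 23.5% rose and 22.6% fell. With totals set equal 4 rose, and under quantile normalization 5, with Cox4i1 no longer passing (adjusted p = 0.0671, limma). The rises were small: Cox5a 1.36-fold, Cox6b1 1.24-fold, Cox7b 1.27-fold and Cox4i1 1.16-fold (adjusted p = 0.000155, 0.000168, 0.00175 and 0.00352, limma). In DPP4- cells none of the 13 passed.

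**Figure D3:**
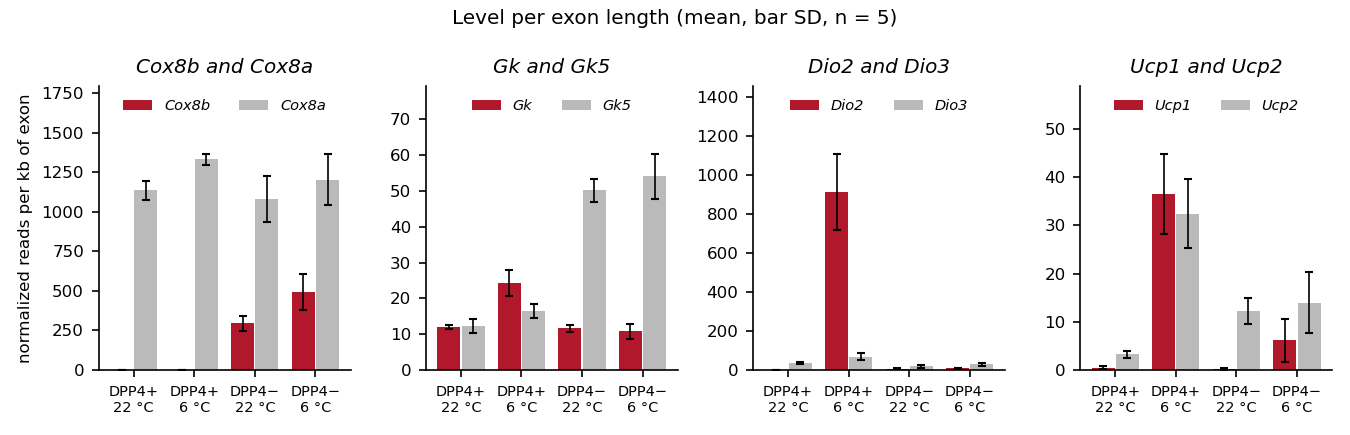
Normalized reads per kb of exon (mean, bar SD, n = 5) of Cox8b, Gk, Dio2 and Ucp1 (red) beside a related gene (grey) in each group. Dio2 stands above Dio3 by 914 to 67.1 in cold DPP4+ cells, and Cox8b is visible in DPP4- cells alone, below Cox8a.

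Gk (Entrez 14933; chrX:85701937-85776819, minus strand), glycerol kinase, which lets a fat cell reuse the glycerol of lipolysis, rose with cold in DPP4+ cells. It stood at 97.0, 97.6, 87.6, 93.3 and 90.2 normalized reads in DPP4+ cells at 22 °C (699 reads) and at 222, 189, 174, 205 and 150 at 6 °C (1164 reads). In DPP4- cells it stood at 91.8, 94.6, 88.2, 78.3 and 99 at 22 °C (329 reads) and at 95.2, 66.8, 71.5, 104 and 79.8 at 6 °C (325 reads). The cold DPP4+ libraries were above all 15 others. The rise was 2.02-fold in DPP4+ cells (log2 difference 0.99, 95% interval 0.75 to 1.24, adjusted p = 2.73e-07, limma), and the log2 difference in DPP4- cells was -0.13 (95% interval -0.38 to 0.12, adjusted p = 0.572, limma).

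The cold effects on Gk differed by 1.12 (95% interval 0.78 to 1.47, adjusted p = 1.50e-05, limma), and DPP4+ cells were 2.25-fold higher at 6 °C (log2 difference 1.17, adjusted p = 4.28e-09, limma). At 22 °C the populations were at 93.1 ± 4.32 and 90.4 ± 7.83 (log2 difference 0.05, adjusted p = 0.736, limma). That comparison had no stable sign: it was 0.65 with totals set equal (adjusted p = 6.35e-05, limma) and -0.26 under quantile normalization (adjusted p = 0.0480, limma). Gk5, a further kinase of the family, was 1.35-fold higher in cold than in other DPP4+ cells (adjusted p = 0.00134, limma). Per kb of exon Gk rose from 12.0 ± 0.558 to 24.3 ± 3.56 in DPP4+ cells and passed Gk5 (12.2 ± 1.99 to 16.6 ± 1.99), whereas Gk5 stood at 50.1 ± 3.2 and 54.1 ± 6.34 in DPP4- cells. An opposite-strand RNA, Gm14764, overlaps an exon of Gk and was not analysed here.

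Of 9 tested genes of glycerol handling, 3 rose and 3 fell with cold in DPP4+ cells, beside 23.5% and 22.6% of all tested genes, and none passed in DPP4- cells. Gpd2, the mitochondrial glycerol 3-phosphate dehydrogenase, rose 2.07-fold (190 ± 9.91 to 394 ± 38.3 normalized reads, adjusted p = 3.9e-10, limma). Gpam, which starts glycerolipid synthesis from glycerol 3-phosphate, fell 1.98-fold (1004 ± 75.7 to 508 ± 97.6, adjusted p = 1.89e-06, limma). Gpat4, an acyltransferase of the same step in the endoplasmic reticulum, rose 1.17-fold (adjusted p = 0.000809, limma).

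Cidea (Entrez 12683, chromosome 18), a lipid droplet protein, and Elovl3 (Entrez 12686; chr19:46131897-46135694, plus strand), a fatty acid elongase, are strong marks of brown fat cells and were hardly present here. Cidea had 4, 13, 2 and 6 reads in DPP4+ cells at 22 °C and 6 °C and DPP4- cells at 22 °C and 6 °C, with no read in 10 of the 20 libraries. Its highest values were 4.6 normalized reads in replicate 2 of cold DPP4+ cells and 4.12 in replicate 5 of cold DPP4- cells. No comparison of Cidea passed (two-sided exact permutation p = 0.230 for cold in DPP4+ cells, 0.683 in DPP4- cells, 1 and 0.444 between the populations at 22 °C and 6 °C).

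Elovl3 had 1, 10, 6 and 15 reads in the same order of groups. Pitx3, which overlaps an exon of Elovl3 on the opposite strand, had 3, 0, 4 and 5. In DPP4+ cells it stood at 0, 0, 0, 0.626 and 0 normalized reads at 22 °C and at 2.59, 1.97, 0, 1.71 and 1.5 at 6 °C. In DPP4- cells it stood at 0, 4.50, 0, 1.54 and 2.57 at 22 °C and at 2.68, 4.09, 1.35, 7.53 and 4.12 at 6 °C. The groups overlapped in every comparison. For cold in DPP4+ cells the ratio was 12.4 with a 95% counting interval of 1.71 to 522, and the two-sided exact permutation p was 0.0476 without adjustment, 0.0873 on leaving out cold replicate 1, 2, 4 or 5 and 0.0635 on leaving out replicate 1, 2, 3 or 5 at 22 °C. The exact permutation p was 0.143 for cold in DPP4- cells, 0.167 and 0.0635 between the populations at 22 °C and 6 °C, where the smallest possible with 5 against 5 is 0.00794. These fell to 0.0476 without replicate 2 of DPP4- cells at 22 °C (cold), 0.0476 without replicate 1 or 3 of the same group (22 °C) and 0.0159 without replicate 3 of cold DPP4- cells (6 °C), so single libraries moved every Elovl3 comparison across the threshold. Elovl5 and Elovl6, elongases of other fatty acids, were abundant and rose 1.42-fold and 1.76-fold in cold DPP4+ cells (adjusted p = 3.85e-06 and 0.000382, limma).

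Counted over the 7 tested genes, cold raised 3 (Ucp1, Dio2, Gk) and lowered 1 (Ppargc1a) in DPP4+ cells, where 46.1% of all tested genes were called, 23.5% higher and 22.6% lower. In DPP4- cells cold raised 2 (Ucp1, Prdm16) and lowered none, where 5.22% of all genes were called, 1.98% higher and 3.23% lower. The difference of the cold effects passed for 5 of 7 (Ucp1, Dio2 and Gk higher, Ppargc1a and Prdm16 lower in DPP4+ cells), beside 33.2% of all genes, 16.8% higher and 16.4% lower. Between the populations, 4 of 7 were lower in DPP4+ cells at 22 °C and none higher, beside 74.9% of all genes called (38.7% higher, 36.2% lower). At 6 °C 3 were higher and 4 lower, beside 74.2% (38.5% higher, 35.7% lower). The share of the 7 called was therefore near that of all genes in the cold comparison of DPP4+ cells and at 22 °C. The count at 22 °C also turned on the scaling, with 1 higher and 2 lower when totals were set equal. With cold, the groups did not overlap for 4 of the 7 in DPP4+ cells (38.4% of all genes, 19.4% higher and 19% lower) and for 2 in DPP4- cells (4.87%, 1.65% higher and 3.22% lower). Between the populations they did not overlap for 4 at 22 °C (64.8%, 33.4% higher and 31.4% lower) and 6 at 6 °C (57.1%, 29.8% higher and 27.4% lower). The median log2 difference of the 7 was 0.36 with cold in DPP4+ cells and 0.31 in DPP4- cells, beside 0.01 and 0.00 over all genes. Each median is the value of 1 gene that was not called. In DPP4+ cells it is Cox8b, on 2 reads against 0 (adjusted p = 0.250, limma). In DPP4- cells it is Ppargc1a (adjusted p = 0.540, limma).

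**Figure D4:**
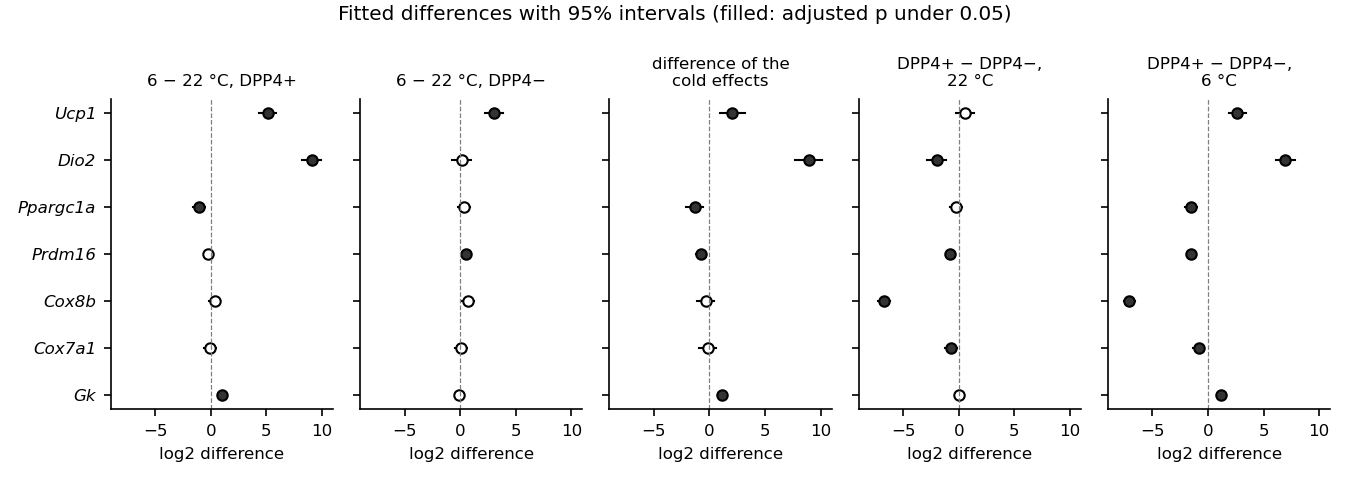
Fitted log2 differences of the 7 tested genes with 95% intervals for cold in DPP4+ cells, cold in DPP4- cells, the difference of these effects, and DPP4+ minus DPP4- at 22 °C and at 6 °C. Filled points passed an adjusted p of 0.05 (limma). Dio2 lies at 9.06 in the first panel and 0.13 in the second, and Cox8b near -7 in both comparisons of the populations.

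Of 16 genes of heat production routes that do not use UCP1, 7 were abundant enough to test. Of these, 3 rose and 1 fell in cold DPP4+ cells, beside 23.5% and 22.6% of all tested genes, and none passed in DPP4- cells. Alpl (TNAP), a phosphatase placed in the futile creatine cycle and also known from bone, rose 19.1-fold, from 70.3 ± 5.78 to 1339 ± 277 normalized reads (adjusted p = 4.24e-15, limma), and stood at 129 ± 9.97 and 114 ± 31.1 in DPP4- cells. Ckb, the creatine kinase of that cycle, rose 1.29-fold (adjusted p = 0.0421, limma), a call lost with totals set equal and under quantile normalization (adjusted p = 0.0675 and 0.101, limma). Gamt, which makes creatine, fell 2.16-fold (adjusted p = 0.000521, limma). Atp2a2, the calcium pump of the endoplasmic reticulum, rose 1.42-fold (adjusted p = 1.48e-07, limma).

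Of 17 other marks of brown and beige fat cells tested (28 in the table), 3 rose and 8 fell with cold in DPP4+ cells (median log2 difference -0.32), beside 23.5% and 22.6% of all tested genes, and 1 rose in DPP4- cells (median 0.06). Cited1, a beige fat mark, rose in both: 7.30 ± 2.33 to 20.7 ± 3.70 normalized reads in DPP4+ cells (2.83-fold, adjusted p = 1.54e-05, limma) and 34.0 ± 10 to 70.8 ± 16.4 in DPP4- cells (2.08-fold, adjusted p = 0.00731, limma). Hspb7, a small heat shock protein enriched in brown fat, fell 6.50-fold in DPP4+ cells (adjusted p = 3.31e-06, limma). Slc36a2 (PAT2) and Tmem26, surface marks of brown and beige fat cells, fell 2.79-fold and 1.86-fold there (adjusted p = 0.000242 and 0.00133, limma). Of 9 tested white fat marks, 1 rose and 3 fell in DPP4+ cells, led by Ednra, an endothelin receptor, which fell 5.77-fold (adjusted p = 9.32e-11, limma).

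Adrb3, the beta3-adrenergic receptor through which noradrenaline acts on fat cells, fell from 92.3 ± 9.37 to 1.06 ± 0.797 normalized reads in cold DPP4+ cells (694 and 7 reads, adjusted p = 2.63e-11, limma), the same libraries in which Dio2 and Ucp1 rose. In DPP4- cells Adrb3 stood at 5.42 ± 2.80 and 8.30 ± 5.43 (adjusted p = 0.571, limma).

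**Figure D5:**
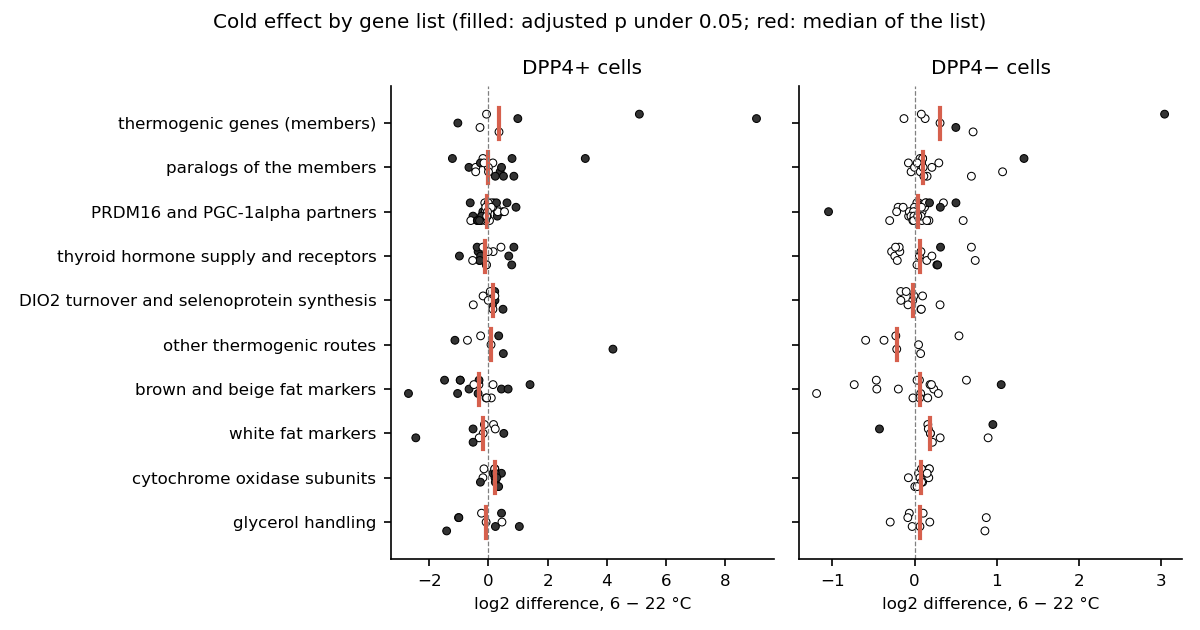
Fitted log2 differences for cold in DPP4+ cells (left) and DPP4- cells (right) for each tested gene of the thermogenic genes and 9 related lists, filled where the adjusted p was under 0.05 (limma), with the list median in red. In DPP4+ cells Dio2 (9.06) and Ucp1 (5.10) lie to the right of every gene of the related lists, of which Alpl (4.21) is the highest, and in DPP4- cells Ucp1 (3.04) lies to the right of all, Ppargc1b (1.33) being next.

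Markers of other cells a PDGFRb+ gate could hold were present at low to moderate sums. In DPP4+ cells the 15 pericyte and smooth muscle genes summed to 9543 to 12260 normalized reads at 22 °C and 4422 to 7232 at 6 °C, and 5 of 13 tested fell and 2 rose. In DPP4- cells they summed to 5559 to 7633 and 6622 to 9503, and none passed. The sum at 22 °C was the larger in DPP4+ cells, yet 7 of the 13 genes stood below their DPP4- level there and 4 above it (median log2 difference -0.61, limma). With totals set equal 5 stood below and 6 above (median -0.02). Of all tested genes 38.7% were higher and 36.2% lower in DPP4+ than in DPP4- cells at 22 °C, and 38.5% and 35.7% at 6 °C. With totals set equal 9158 and 2001 of 13072 genes were higher and lower at 22 °C, and 8282 and 2426 at 6 °C. The 12 endothelial genes summed to 2631 to 4320 in DPP4+ and 946 to 1617 in DPP4- libraries. Most single genes went against that sum: of the 10 tested, 6 stood below their DPP4- level at either temperature. Only 1 stood above it at 22 °C and 3 at 6 °C (median log2 differences -1.73 and -1.59, limma). With totals set equal 6 were still below, with 2 and 3 above. The sum alone therefore does not rank the populations in endothelial RNA. The 12 leukocyte genes summed to 161 to 336 except in replicate 2 of cold DPP4- cells (1091), and the 8 Schwann cell genes to 191 to 783. The 11 progenitor genes, collagens included, summed to 534301 to 914338 in DPP4+ cells at 22 °C and 491942 to 738716 at 6 °C. In DPP4- cells they summed to 1876420 to 2291850 and 1287980 to 1861950. With cold 2 of the 11 fell and none rose in DPP4+ cells, and 3 fell and none rose in DPP4- cells. Those 3 (Itgb1, Col3a1 and Col1a2) did not pass under quantile normalization. In DPP4+ cells 1 stood above its DPP4- level and 6 below it at 22 °C, and 2 and 7 at 6 °C. With totals set equal these counts were 5 and 5, and 4 and 7. Higd1b was without reads in DPP4- cells at 22 °C, and Cd3e and Nkg7 in cold DPP4+ cells. The part of these markers in the results was not tested.

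The genes whose profile over the 20 libraries lay nearest to that of Dio2 were Ramp3, Il11, Ren1, Hal and Sptssb (root mean square distance of centred log2(value + 1) 1.08 to 1.49). All 5 were high in cold DPP4+ cells and low elsewhere: Ramp3, a partner of calcitonin-family receptors, stood at 849 ± 198 normalized reads there and at 1.73 to 1.97 on average in the other groups, and Il11, a cytokine, at 2977 ± 626 and 17.4 to 25.9. Ren1, renin, was at 906 ± 200 and below 2 elsewhere. Nearest to Ucp1 were F5, Clstn3, Gpr35, Il20ra and Pde4d (1.13 to 1.18), of which Pde4d, a phosphodiesterase of cyclic AMP, stood at 2051 ± 443 in cold DPP4+ cells and 126 to 182 in the other groups. Nearest to Ppargc1a were Gpr19, Ift81, Rai2, Acvr2a and Pdgfrb (0.31 to 0.36). Pdgfrb, the receptor used for the gate, went from 2942 ± 226 to 1505 ± 80.7 in DPP4+ cells and stood at 4126 ± 333 and 4124 ± 543 in DPP4- cells. Nearest to Cox8b were Cacna1e, Sparcl1, Oprd1, Kcna2 and Igsf21 (0.63 to 0.80), all near absence or far lower in DPP4+ cells, and to Cox7a1 Pcdhgc3, Tmem87a, Cuedc1, Dcp2 and Slc9a9 (0.27 to 0.29).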

How the data were processed

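Sorted PDGFRb+ cells gave RNA (RNAqueous micro) and then NEBNext Ultra II libraries, per the labels' protocols. DESeq2 1.6.3, featureCounts 1.4.6, Trim Galore 0.4.1 and HISAT2 2.0.1 are named without a role, with builds GRCm38 and mm10, per the submitters' processing notes. The annotation and strand are not given in the sources used here. The deposited signal is a table in which the authors divided gene counts by 1 factor per library. The whole reads were recovered: 100% of values are whole multiples of 1 step per library (tolerance 0.1 read, largest distance 0.00122). Genes without a symbol, 958 of 27179 with 0.0610 to 0.0824% of a library's reads, were kept by ID, and 26 symbols turned into dates were restored from RefSeq.

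Genes with a mean of at least 10 (13057) were fitted on log2(value + 1) with limma 3.58.1 in R 4.3.3 (4 group means, 16 residual degrees of freedom, trend and robust), with Benjamini-Hochberg adjustment within each of 5 contrasts. Folds are ratios of group means. Log2 differences are on the log2(value + 1) scale and understate changes of low genes. Counting intervals (95%) and the 3-read limit cover counting error only. Alternatives were equal totals, quantile normalization, a pseudocount of 0.5, no filter, a minimum of 50, edgeR 4.0.16 and DESeq2 1.42.0 on the whole reads, leaving out each library, and a replicate block. The procedure was tested on simulated data. Exon lengths are unions of GENCODE vM21 exons, and gene positions and promoters are from RefSeq (GRCm38.p6). Genes named besides the 9 are those with the up to 4 smallest p in each of 16 lists and comparison, related genes, an adrenergic receptor and the 5 nearest profiles; some genes under this rule are not reported here. The genes and lists were chosen with earlier results of these data known.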

Additional observations from a re-analysis of the deposited data

Results flagged for a closer look

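In 3 groups 1 library stood far from the other 4 by Dixon's 95% criterion, which chance meets in about 1 of 20 groups. Ucp1 was 23.0 normalized reads in replicate 5 of cold DPP4- cells (28 reads) and 5.36 to 8.18 in the other 4. The single reads of Ucp1 in DPP4- cells at 22 °C (1.26 normalized reads in replicate 3) and of Elovl3 in DPP4+ cells at 22 °C (0.626 in replicate 4) stood apart from 4 libraries at 0, where any read would.

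For 5 of the 7 tested genes the cold effect differed between the populations by the limma test of the difference itself, beside 33.2% of all tested genes. The DPP4+ effect was the larger by 2.06 for Ucp1, 8.93 for Dio2 and 1.12 for Gk on the log2 scale. It was the more negative for Ppargc1a (-1.34) and Prdm16 (-0.79). For Ucp1 the count models gave a smaller difference that did not pass (1.16 and 1.36), and these models called 2 of the 7 higher and 2 lower. All cold DPP4- libraries of Ppargc1a and Prdm16 were above all cold DPP4+ libraries.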

How the results depend on the processing

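Among the called genes, Dio2, Gk, Ppargc1a and Ucp1 kept their direction and call for cold in DPP4+ cells, and Ucp1 in DPP4- cells, under every scaling, pseudocount, filter and count model that tested them and without any library. With a minimum mean of 50 only 4 of the 7 genes were tested, which alone lowered the counts: 0 lower with cold in DPP4+ cells, 1 higher in DPP4- cells, 1 lower for the difference and 2 lower at 6 °C. Equal totals gave 916 genes higher and 226 lower with cold in DPP4- cells (259 and 422 as reported), 1131 higher and 3064 lower for the difference (2192 and 2137), 9158 and 2001 at 22 °C (5052 and 4730), 8282 and 2426 at 6 °C (5031 and 4662), and 2383 and 3285 with cold in DPP4+ cells (3069 and 2954). In the comparison at 22 °C this scaling left 2 of the 7 genes lower and put 1 higher. Quantile normalization gave 277 genes lower with cold in DPP4- cells and turned Gk at 22 °C to -0.26. The cause was not tested for equal totals or quantile normalization. With the longest transcript as length, Prdm16 was 55.4 to 85.9% of the summed level of Prdm16 and Mecom.

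Leaving out 1 library gave 1 to 2 of the 7 genes lower with cold in DPP4+ cells, 1 to 2 higher in DPP4- cells and 3 to 4 lower at 22 °C, and 162 to 379 genes higher with cold in DPP4- cells, where the lowest count came without replicate 3 at 6 °C; 313 to 559 were lower there. In DPP4+ cells 2771 to 3159 were higher and 2651 to 3058 lower. Replicate numbers were shared between groups, and whether they pair the libraries was not settled. Correlations of same-numbered deviations were 0.0290 to 0.156 between the populations at 22 °C, 0.0166 to 0.107 at 6 °C and -0.228 to 0.267 across temperatures. Between the populations the same number gave the highest correlation in replicates 2 and 5 at 22 °C and 2, 3, 4 and 5 at 6 °C. Across temperatures it did so in replicates 1, 4 and 5 of DPP4+ and 1 and 4 of DPP4- cells. With the replicate number as a block, 3053 genes were higher and 2960 lower with cold in DPP4+ cells, 270 and 439 in DPP4- cells, and no call among the 7 genes changed. Low counts limit Cidea, Elovl3 and, at 22 °C, Ucp1.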
